A study of Mus musculus with 8 samples.

Results

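The cytosolic heat shock genes are described here in ribosome-associated mRNA of PV+ interneurons, the parvalbumin-expressing inhibitory cells of the cortex. They were chosen by name, as the rows of the count and TPM files that carry one of 10 gene symbols: *Hspa8*, *Hspa1a*, *Hspa1b*, *Hsp90aa1*, *Hsp90ab1*, *Hsph1*, *Dnaja1*, *Dnajb1*, *Hspb1* and *Hsf1*. All 10 were found among the 45706 genes of the files, and all 10 passed the filter on low counts that left 17495 genes for the tests. The mRNA came from primary somatosensory cortex (S1) of *Pvalb* Flp/+; *Neurod6* Cre/+ mice aged P42 to P70 by the sample labels, where the methods give a slightly later first day. A virus, given at P1 by the labels and over a range of days from P1 by the methods, carried, under the neuronal hSyn promoter, a ribosomal protein with an HA tag together with the receptor hM3Dq. Flp switched this construct on in PV+ cells and Cre, which is active in pyramidal cells, removed it. One group of 4 samples came from mice given 5 injections of CNO, the ligand of hM3Dq, at 1 mg/kg over 48 h, and the other 4 from mice given vehicle. Each sample pooled 4 brains, and both groups carried the virus and both driver alleles. Mice that received CNO without hM3Dq were not part of the RNA-seq, so that an effect of CNO itself and one of the receptor cannot be told apart. Infection was sparse, and the mRNA bound by the beads was not from PV+ cells alone, because markers of other cell types were read in every sample.

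Heat shock proteins are chaperones that bind unfolded stretches of other proteins and help them to fold, to be rebuilt after damage or to be handed over for degradation. HSP70 proteins do this in cycles of ATP binding and hydrolysis that J-domain proteins start and nucleotide exchange factors reset, and HSP90 proteins take over a later stage of folding for many kinases and receptors. Some members are made at all times, among them *Hspa8* and *Hsp90ab1*, whereas *Hspa1a* and *Hspa1b* are the classical inducible genes that the transcription factor HSF1 switches on when unfolded proteins accumulate. Neurons are known for a weak heat shock response and for a high constitutive level of HSC70, the product of *Hspa8*, which also strips clathrin from synaptic vesicles. The comparison asks whether these mRNAs on the ribosomes of PV+ interneurons differed between CNO and vehicle after 48 h of injections. Earlier times were not measured, so a change that came and went before then would not be seen.

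HSF1 binds repeats of a short unit that reads GAA on one strand and TTC on the other. The sequences below are shown because they carry this element and because they set how well *Hspa1a* and *Hspa1b* can be told apart. RefSeq start sites on GRCm38.p6 were at hand for 6 of the 10 genes, with 10 start sites in all, and the 250 bases before each start were searched for GAANNTTC and TTCNNGAA, each of which reads the same on both strands. In 5 of the 6 genes at least 1 start site had such a pair of units, namely *Hspa1a*, *Hspa1b*, *Hspb1*, *Hsph1* and *Dnaja1*, whereas *Dnajb1* had none. Counted by start site, 6 of the 10 windows held a pair. These windows are not independent, since those of *Hsph1* overlap and hold the same site and those of *Hspa1a* and *Hspa1b* are nearly identical. Among 32851 promoters of the same length, also counted 1 by 1, 12.8% held either form, 6.69% GAANNTTC and 7.17% TTCNNGAA. A row of 3 alternating units with 2 bases between them was found before none of the 10 start sites and in 0.466% of all promoters. These matches describe letters in a window and do not show binding. The window of *Hspa1a* lies at chr17:34972157-34972406 on the minus strand and that of *Hspb1* at chr5:135887669-135887918 on the plus strand, each printed 5′ to 3′ with the paired units in capitals.
Hspa1a: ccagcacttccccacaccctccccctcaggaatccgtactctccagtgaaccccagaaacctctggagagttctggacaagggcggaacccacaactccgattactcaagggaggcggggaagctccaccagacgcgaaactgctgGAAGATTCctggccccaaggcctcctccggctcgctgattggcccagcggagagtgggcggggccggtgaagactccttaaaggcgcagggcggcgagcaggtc
Hspb1: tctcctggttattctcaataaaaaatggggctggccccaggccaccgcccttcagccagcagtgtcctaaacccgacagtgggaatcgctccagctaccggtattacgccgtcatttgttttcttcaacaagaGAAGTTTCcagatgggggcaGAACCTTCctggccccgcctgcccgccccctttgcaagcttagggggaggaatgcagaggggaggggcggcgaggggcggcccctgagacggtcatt
The pair of units started 104 bases before the start of *Hspa1a*, and *Hspb1* had 1 pair at 117 and another at 97 bases before its start. The window of *Hspa1b* differed from that of *Hspa1a* at 3 of 250 bases, all outside the pair of units, so only the site itself is shown for it. The sites of the other 3 genes with a match, each with 10 bases on either side, lie at chr17:34959325-34959352 (minus strand) for *Hspa1b*, chr5:149636352-149636379 (minus strand) for *Hsph1* and chr4:40722334-40722361 (plus strand) for *Dnaja1*.
Hspa1b: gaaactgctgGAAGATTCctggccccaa
Hsph1: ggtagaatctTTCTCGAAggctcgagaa
Dnaja1: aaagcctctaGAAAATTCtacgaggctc
*Hspa1a* and *Hspa1b* carried the same letters over these 28 bases. The *Hsph1* site fell 33 or 54 bases before the gene, depending on which of its RefSeq start sites is used.

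*Hspa1a* (ENSMUSG00000091971, chr17:34969190-34972156) and *Hspa1b* (ENSMUSG00000090877, chr17:34956436-34959238) each consist of 1 exon on the minus strand of GRCm38, annotated by GENCODE. Their coding sequences of 1923 and 1926 bases differ at 8 of 1923 aligned bases and by 1 gap of 3 bases, which is an identity of 99.6%. The longest coding stretch without a difference was 638 bases. The 90 coding bases with the most differences, from base 1327 to base 1416 of each coding sequence, hold 2 differing bases, which are in capitals. They lie at chr17:34970510-34970599 in *Hspa1a* and at chr17:34957592-34957681 in *Hspa1b*, both in the exon.
Hspa1a: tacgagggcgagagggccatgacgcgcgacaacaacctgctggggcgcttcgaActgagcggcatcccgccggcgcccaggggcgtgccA
Hspa1b: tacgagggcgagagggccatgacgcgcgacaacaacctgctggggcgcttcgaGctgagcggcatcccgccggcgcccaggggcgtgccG
Of the 31-nucleotide stretches of the *Hspa1a* transcript, 63.8% also occur in *Hspa1b*, and 67.6% of those of *Hspa1b* occur in *Hspa1a*. Their separate values rest on how Salmon divided shared reads, and their sum is therefore given as well. *Hspa1a* also overlaps *Gm20481* on the opposite strand, which had a mean of 2.97 TPM, and without strand the reads of these genes cannot be told apart.

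Before the comparison, 1 sample has to be named. Vehicle replicate 1 stood apart in its cell type markers. The summed level of 9 PV+ interneuron markers was 1173 TPM in this sample and 2474 to 3884 TPM in the other 7. The 9 pyramidal cell markers summed to 991 TPM in it and to 638 to 880.1 TPM in the others. The marker index, the mean log2 CPM of the PV+ markers minus that of the pyramidal markers, was 0.19 in vehicle replicate 1, 1.53, 1.95 and 1.78 in vehicle replicates 2, 3 and 4, and 2.09, 1.35, 1.94 and 2.54 in CNO replicates 1 to 4. A log2 fold change above 0 was found in 9 of 9 PV+ markers, 1 of 9 pyramidal cell markers, 3 of 5 markers of other interneurons, 2 of 7 of astrocytes, 0 of 6 of oligodendrocytes and 0 of 6 of microglia. An unadjusted p under 0.05 was reached by 1 PV+ marker, *Gad2* (log2 fold change 0.52), 1 marker of other interneurons, *Lamp5* (-0.37, the CNO samples all below the vehicle samples), and 1 microglial marker, *P2ry12* (-0.38), all named after their values were seen. The 5 markers of other interneurons summed to 447 to 521 TPM with CNO and 508 to 586 TPM with vehicle, the 7 of astrocytes to 211 to 319.6 and 259 to 357 TPM, the 6 of oligodendrocytes to 563 to 1020.1 and 777 to 999 TPM, and the 6 of microglia to 44.7 to 72.5 and 58.8 to 82.6 TPM. No marker of these lists was at 0 in any sample, and their part in the results below was not tested. These marker counts and p-values rest on all 8 samples. Without vehicle replicate 1, *Kcnc1* turned to -0.06, and the other PV+ markers ran from 0.04 for *Pvalb* to 0.34 for *Gad2*. The unadjusted p was then 0.0479 for *Gad2*, 0.0296 for *Lamp5* and 0.143 for *P2ry12* in edgeR's quasi-likelihood test. The results below are given with and without vehicle replicate 1. In bulk samples such as these, fewer PV+ cells and less RNA per PV+ cell cannot be told apart. The check of activation was *Fos*, a gene that neurons switch on when they fire, with 49.1 ± 16.4 CPM in the CNO samples and 12.9 ± 2.01 CPM in the vehicle samples (SD, n = 4 each). All 4 CNO samples lay above all 4 vehicle samples in *Fos*, a log2 fold change of 1.93 ± 0.22 (standard error) with an adjusted p of 0.0520 (edgeR's quasi-likelihood test), which is just above the threshold of 0.05. The cause of this difference was not tested. Total counts per sample ranged from 44064161 to 49413273, so that a level of 3 counts corresponds to 0.0607 to 0.0681 CPM, a limit that covers counting error only.

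None of the 10 heat shock genes differed between CNO and vehicle beyond the spread between samples. By edgeR's quasi-likelihood test 0 of 10 had an adjusted p under 0.05, with adjusted p from 0.817 to 0.953, against 0% of all 17495 genes. At an unadjusted p under 0.05 there were also 0 of 10, where 1.44% of all genes were higher with CNO and 2.65% lower, and the lowest unadjusted p was 0.199, for *Hspb1*. In 0 of 10 did the groups fail to overlap, which happened in 0.789% of all genes with CNO higher and in 1.63% with CNO lower. The likelihood ratio test with robust dispersion called 0 of 10 and 0.0857% of all genes, and DESeq2 called 0 of 10 and 0.0629% of all genes. The median log2 fold change of the 10 genes was 0.15, and it was 0.03 without vehicle replicate 1, when 0 of 10 had an unadjusted p under 0.05 against 2.25% of the genes then tested. With the marker index as a covariate the median was -0.03, again with 0 of 10 at that threshold against 3.38% of all genes. The index was taken from these same libraries, and with all 8 samples all of its PV+ markers had a log2 fold change above 0. The fit with it therefore cannot fully separate the index from the treatment. Over all genes the median log2 fold change was 0.0014, and it was -0.0041 without vehicle replicate 1 and -0.014 with the marker index.

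**Figure D1:**
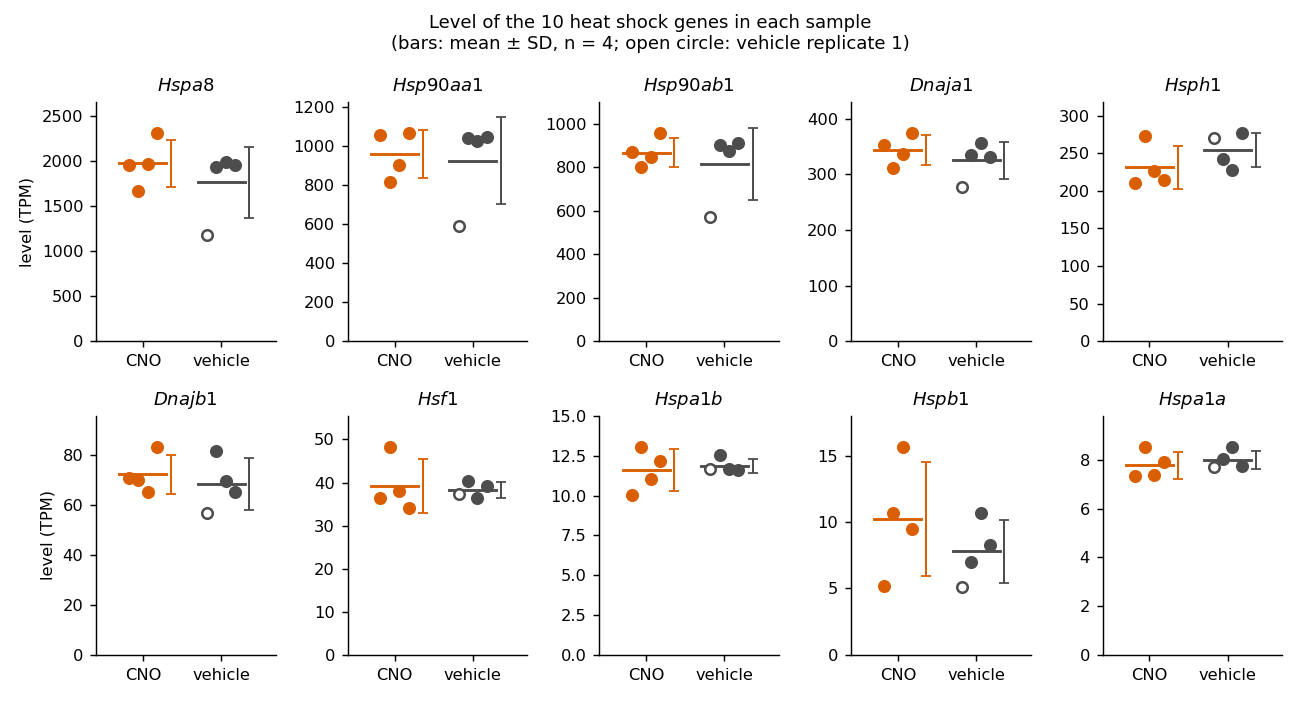
Level in TPM (vertical axes, each from 0) of the 10 genes in the 4 CNO samples (orange) and the 4 vehicle samples (grey), with the mean and the SD; the open circle is vehicle replicate 1. The groups overlap in every gene, and the open circle is the lowest of the 8 points in *Hspa8*, *Hsp90aa1*, *Hsp90ab1*, *Dnaja1*, *Dnajb1* and *Hspb1*.

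TPM divides counts by transcript length, so that levels can be set side by side between genes. On this scale the genes spanned from 7.89 TPM for *Hspa1a* to 1873 TPM for *Hspa8*, as means over the 8 samples. *Hspa8* was 18th of all 17495 tested genes in mean TPM, *Hsp90aa1* 72nd and *Hsp90ab1* 87th, whereas *Hspa1b* was 9192nd and *Hspa1a* 10302nd. From the top the order was *Hspa8*, *Hsp90aa1*, *Hsp90ab1*, *Dnaja1*, *Hsph1*, *Dnajb1*, *Hsf1*, *Hspa1b*, *Hspb1* and *Hspa1a*. Of these neighbours, *Hsp90aa1* and *Hsp90ab1*, *Hspa1b* and *Hspb1*, and *Hspb1* and *Hspa1a* overlapped in their ranges over the 8 samples. *Hsp90aa1* was nevertheless above *Hsp90ab1* within each of the 8 samples, *Hspa1b* was above *Hspb1* in 7 of them and *Hspb1* above *Hspa1a* in 5. Together the 10 genes made up 0.452% ± 0.0435 of all TPM in the CNO samples and 0.422% ± 0.0811 in the vehicle samples (SD, n = 4 each). The lowest of the 8 shares, 0.301%, was that of vehicle replicate 1, and the other 7 lay between 0.402% and 0.507%.

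*Hspa8* (ENSMUSG00000015656, chr9:40800984-40810087, plus strand, up to 9 exons) encodes HSC70, the constitutive HSP70 of the cytosol. Its level was 1954, 1671, 1973 and 2312 TPM in CNO replicates 1 to 4. In vehicle replicates 1 to 4 it was 1179.5, 1931, 1996 and 1964 TPM. Vehicle replicate 1 was the lowest of the 8 samples, and the other 3 vehicle samples lay within the range of the CNO samples. In log2 terms the change was 0.25 (standard error 0.21, 95% confidence interval -0.22 to 0.71, adjusted p = 0.817). Without vehicle replicate 1 it was 0.07, with an interval from -0.24 to 0.38, and with the marker index as a covariate it was -0.06 (standard error 0.06). Of the 31-nucleotide stretches of *Hspa8* transcripts, 38.6% are also found in the processed pseudogene *Gm15459*. This copy was listed at a mean of 334 TPM, 17.9% of the *Hspa8* level, so that its reads and those of *Hspa8* may have been divided between the copies.

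*Hspa1a* and *Hspa1b* encode the inducible HSP70 and were the lowest and the third lowest of the 10 genes in mean TPM. *Hspa1a* had 7.32, 8.52, 7.37 and 7.90 TPM in CNO replicates 1 to 4, and in the vehicle samples 7.71, 8.03, 8.51 and 7.76 TPM. *Hspa1b* had 10.0, 13.1, 11.0 and 12.2 TPM with CNO and 11.7, 12.5, 11.7 and 11.6 TPM with vehicle, in the same order. Neither the groups nor vehicle replicate 1 stood apart on this scale, and in both genes the 4 vehicle samples lay inside the range of the CNO samples. Summed as 1 unit they had 19.4 ± 1.86 TPM in the CNO samples and 19.9 ± 0.598 TPM in the vehicle samples (SD, n = 4 each). On TMM-normalized counts the sum changed by a log2 fold of 0.03 ± 0.09 (standard error), with an adjusted p of 0.939. Its 95% confidence interval ran from -0.18 to 0.24, and without vehicle replicate 1 from -0.22 to 0.20 around -0.01. The separate genes gave 0.02 for *Hspa1a* and 0.03 for *Hspa1b*, with standard errors of 0.11 and 0.10, and the signs of these values turned with the scaling, since library size alone gave -0.03 and -0.02.

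*Hspa8* held 99.0% ± 0.195 of the summed TPM of *Hspa8*, *Hspa1a* and *Hspa1b* in the CNO samples (SD, n = 4) and 98.8% ± 0.306 in the vehicle samples (SD, n = 4). The share of the inducible pair was 0.880%, 1.27%, 0.925% and 0.862% in CNO replicates 1 to 4. In vehicle replicates 1 to 4 it was 1.62%, 1.05%, 1.00% and 0.976%. The highest share was again in vehicle replicate 1, where *Hspa8* and not the inducible pair was low.

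*Hsp90aa1* (ENSMUSG00000021270, chr12:110690605-110702728, minus strand, up to 11 exons) encodes HSP90α and *Hsp90ab1* (ENSMUSG00000023944, chr17:45567775-45573271, minus strand, up to 11 exons) HSP90β, the isoform that most cells make constitutively. *Hsp90aa1* had 1059.7, 814, 904 and 1066 TPM in CNO replicates 1 to 4 and 589.5, 1042, 1026 and 1048 TPM in vehicle replicates 1 to 4. *Hsp90ab1* had 868, 799, 847 and 956 TPM with CNO, and with vehicle 570.2, 903, 873 and 912 TPM. In both genes the 3 other vehicle samples were close together, with 1039 ± 11.6 TPM for *Hsp90aa1* and 896 ± 20.1 TPM for *Hsp90ab1* (SD, n = 3), and vehicle replicate 1 lay far below them. The log2 fold changes were 0.17 for *Hsp90aa1* (standard error 0.19, adjusted p = 0.825) and 0.17 for *Hsp90ab1* (standard error 0.18, adjusted p = 0.822). They were 0.00 and 0.01 without vehicle replicate 1, with 95% confidence intervals from -0.28 to 0.29 and from -0.24 to 0.27. With the marker index as a covariate they were -0.11 and -0.07, with standard errors of 0.07 each. *Hsp90aa1* made up 52.4% ± 1.93 of the summed TPM of the pair with CNO and 53.0% ± 1.45 with vehicle (SD, n = 4 each). In *Hsp90aa1*, 46.7% of the 31-nucleotide stretches are shared with the pseudogene *Gm12346*, which had a mean of 2.405 TPM.

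**Figure D2:**
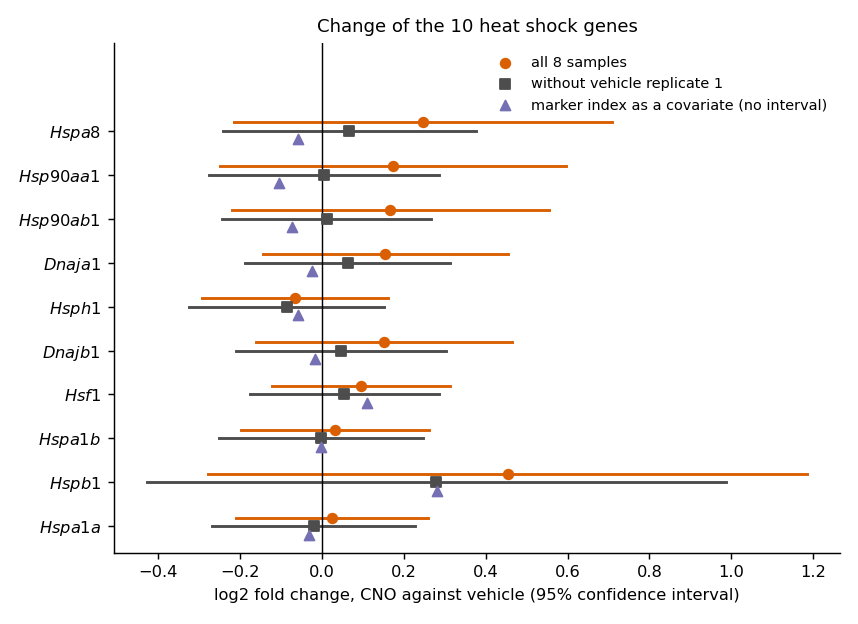
Log2 fold change of each gene, CNO against vehicle (horizontal axis), from all 8 samples (orange circles) and without vehicle replicate 1 (grey squares), with 95% confidence intervals, and with the marker index as a covariate (purple triangles, no interval drawn). Every interval covers 0, and the squares of *Hspa8*, *Hsp90aa1* and *Hsp90ab1* lie at 0.07, 0.00 and 0.01, where the circles lie at 0.25, 0.17 and 0.17.

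*Dnaja1* (ENSMUSG00000028410, chr4:40722150-40737149, plus strand, up to 9 exons) and *Dnajb1* (ENSMUSG00000005483, chr8:83608193-83612653, plus strand, up to 3 exons) encode J-domain proteins that deliver substrates to HSP70 and start its ATPase cycle. *Dnaja1* had 354, 312, 336 and 374 TPM in CNO replicates 1 to 4 and 278, 335, 356 and 332 TPM in vehicle replicates 1 to 4. *Dnajb1*, which is induced by heat in many cells, had 70.6, 69.95, 65.1 and 83.1 TPM with CNO and 56.6, 81.6, 69.4 and 65.3 TPM with vehicle. Vehicle replicate 1 was again the lowest of the 8 samples and CNO replicate 4 the highest in both genes. The log2 fold change was 0.15 in *Dnaja1* and 0.15 in *Dnajb1*, each with a standard error of 0.14 and an adjusted p of 0.817. Without vehicle replicate 1 the values were 0.06 and 0.05. *Dnaja1* stood at 4.78 ± 0.356 times the TPM of *Dnajb1* with CNO and at 4.81 ± 0.475 times with vehicle (SD, n = 4 each). In *Dnaja1*, 22.6% of the 31-nucleotide stretches are shared with other genes, and in *Dnajb1* 0.444%.

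*Hsph1* (ENSMUSG00000029657, chr5:149614287-149636376, minus strand, up to 19 exons) encodes HSP105, a large relative of HSP70 that acts as its nucleotide exchange factor. Its level was 210.0, 273, 227 and 215 TPM in CNO replicates 1 to 4, and 270.4, 242, 228 and 277 TPM in vehicle replicates 1 to 4. Unlike in *Hspa8*, vehicle replicate 1 was among the high samples on this scale, and the groups overlapped. *Hsph1* was the only one of the 10 with a negative log2 fold change, -0.07 (standard error 0.10, 95% confidence interval -0.29 to 0.16, adjusted p = 0.869), and it was -0.09 without vehicle replicate 1. Per 100 TPM of *Hspa8* there were 11.97 ± 3.05 TPM of *Hsph1* with CNO and 15.2 ± 5.24 with vehicle (SD, n = 4 each), with the highest value, 22.9, in vehicle replicate 1. No 31-nucleotide stretch of *Hsph1* was shared with another gene.

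*Hspb1* (ENSMUSG00000004951, chr5:135887919-135889563, plus strand, up to 3 exons) encodes HSP25, the mouse form of HSP27, a small heat shock protein that holds unfolded proteins without using ATP and in brain is known from glia and vessels as well as from some neurons. Its level was 5.15, 10.7, 15.6 and 9.46 TPM in CNO replicates 1 to 4. In vehicle replicates 1 to 4 it was 5.13, 6.98, 10.7 and 8.31 TPM. It had the widest spread of the 10 genes, with a highest normalized level 3.48 times the lowest, and both the highest and the second lowest sample were CNO samples. The fitted log2 change was 0.45 (standard error 0.33, 95% confidence interval -0.28 to 1.19, adjusted p = 0.817), and 0.28 without vehicle replicate 1. Without CNO replicate 1 it was 0.67 with an unadjusted p of 0.0441 and an adjusted p of 0.930 in the quasi-likelihood test. The summed level of 6 endothelial markers moved with some of the same samples: it was 23.3, 61.5, 69.2 and 48.9 TPM in CNO replicates 1 to 4 and 38.7, 36.2, 54.0 and 48.6 TPM in vehicle replicates 1 to 4. It was lowest in CNO replicate 1 and highest in CNO replicate 3, where *Hspb1* was at 5.15 and 15.6 TPM. All 6 endothelial markers had a log2 fold change above 0, none with an unadjusted p under 0.05 and none at 0 in any sample. The 7 astrocyte markers summed to 224, 319.6, 262 and 211 TPM in CNO replicates 1 to 4 and 357, 306, 259 and 279 TPM in vehicle replicates 1 to 4. Their sum was highest in vehicle replicate 1, where *Hspb1* was lowest. The part of vessel or glial RNA in the *Hspb1* level was not tested. Of the 31-nucleotide stretches of *Hspb1* transcripts, 55.4% are shared with other genes. With *Hsp25-ps1*, which had a mean of 0.087 TPM, 52.3% are shared.

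*Hsf1* (ENSMUSG00000022556, chr15:76477422-76501913, plus strand, up to 13 exons) encodes the transcription factor that switches on heat shock genes and is itself regulated mostly as a protein. It had 36.5, 48.2, 38.0 and 33.98 TPM in CNO replicates 1 to 4, and the vehicle samples had 37.3, 40.4, 36.4 and 39.3 TPM. On this scale CNO samples were both the highest and the lowest of the 8. *Hsf1* changed by a log2 fold of 0.10 (standard error 0.10, 95% confidence interval -0.12 to 0.31, adjusted p = 0.822), and 0.05 without vehicle replicate 1.

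Set against each gene's own mean, the 10 genes differed in how they ran across the 8 samples. On normalized counts vehicle replicate 1 was the lowest sample in 8 of the 10 genes, where it was the lowest in 30.4% and the highest in 24.3% of all genes, and CNO replicate 4 was the highest in 6 of 10. The share of all genes highest in CNO replicate 4 was not counted, so its 6 of 10 has no baseline here. On the TPM scale vehicle replicate 1 was the lowest in 6 of 10. Its normalized level was 54.8% of the mean of the other vehicle samples in *Hspa8*, 57.8% in *Hsp90aa1* and 60.7% in *Hsp90ab1*. In *Hspb1* it was 54.2%, in *Dnajb1* 73.0% and in *Dnaja1* 76.9%. In *Hspa1a*, *Hspa1b*, *Hsf1* and *Hsph1* it was 88.5%, 91.3%, 89.6% and 95.4%. *Hspb1* and the 3 most abundant chaperones were thus farthest below the other vehicle samples, and the inducible pair was nearer to them. The part of the share of PV+ RNA in this order was not tested. The 2 closest genes were *Hsp90aa1* and *Hsp90ab1*, whose centred log2 CPM differed by a mean of 0.04 per sample. *Hspa1a* and *Hspa1b* followed with 0.06, and *Hspa8* differed from *Hsp90aa1* by 0.07 and from *Hsp90ab1* by 0.08. *Hspb1* and *Hsph1* were the farthest apart with 0.47.

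**Figure D3:**
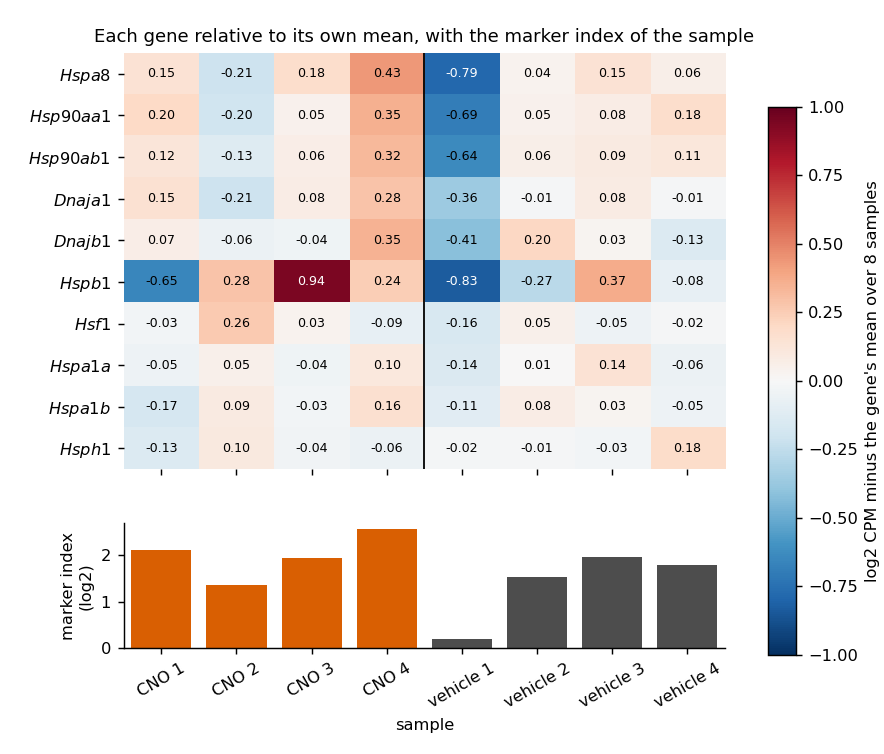
Colour and number give the log2 CPM of each gene (rows) in each sample (columns) minus the gene's mean over the 8 samples, and the bars below give the marker index of the sample in log2 units. In vehicle replicate 1, which has the lowest index (0.19), *Hspa8* is 0.79 and *Hsp90aa1* 0.69 below their means, and *Hsph1* 0.02 below its mean.

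The genes most like 3 of the members were those with the smallest mean absolute difference in centred log2 CPM over the 8 samples, among all tested genes of mean TPM above 1. For *Hspa8* they were *Gm15459*, the pseudogene copy named above, with a difference of 0.02, and *Snx2*, *Ntan1*, *Ubl7* and *Ywhaq* with 0.02 to 0.03. For *Hsph1* they were *Camk2b*, *Cmtr1*, *Immt*, *Mars* and *Cpsf2* with 0.02 to 0.03. For the sum of *Hspa1a* and *Hspa1b* they were *Cers5*, *Sgce*, *Capn10*, *Pigq* and *Npdc1* with 0.03 to 0.04. The median difference over all genes was 0.28 for *Hspa8* and 0.18 for each of *Hsph1* and the sum. All these values share the same libraries, depth and normalization. None of the 10 heat shock genes was among these 15 nearest genes.

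Other genes of the chaperone network were described from 7 lists of 54 genes in all, of which every gene was tested. By the quasi-likelihood test 0 of 54 had an adjusted p under 0.05. At an unadjusted p under 0.05 there were 2 of 54 higher with CNO (3.70%, where 1.44% of all genes were higher) and 0 of 54 lower. They were *Bag3* and *Hspb8*, whose products bind each other in a complex that sends damaged proteins to autophagy. *Bag3* had 20.8, 16.9, 18.5 and 23.1 CPM in CNO replicates 1 to 4 and 7.07, 17.5, 16.5 and 14.1 CPM in vehicle replicates 1 to 4. The groups overlapped by CNO replicate 2 and vehicle replicate 2. On the log2 scale *Bag3* was 0.52 ± 0.23 (standard error) higher, with an unadjusted p of 0.0475 and an adjusted p of 0.817, and 0.30 without vehicle replicate 1 (unadjusted p = 0.0306). *Hspb8* had 8.27, 9.36, 8.97 and 12.6 CPM with CNO and 4.27, 8.43, 7.60 and 6.84 CPM with vehicle, in the same order, and the groups overlapped by CNO replicate 1 and vehicle replicate 2. On the log2 scale *Hspb8* was 0.53 ± 0.21 (standard error) higher, with an unadjusted p of 0.0277 and an adjusted p of 0.817, and 0.36 without vehicle replicate 1 (unadjusted p = 0.0487). A two-sided exact permutation test with 70 possible assignments gave p = 0.0571 for each, where 0.0286 is the smallest p possible. With the marker index as a covariate the unadjusted p was 0.140 for *Bag3* and 0.0993 for *Hspb8*.

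In the HSP70 and HSP110 list, 4 of 7 genes had a log2 fold change above 0 and 3 below, with a median of 0.05 and none at an unadjusted p under 0.05. It ran from -0.03 for *Hspa2*, an HSP70 best known from testis, to 0.19 for *Hspa12a*, and *Hspa4l* was the most abundant with a mean of 139 TPM. Among 9 further J-domain proteins 8 were above 0, with a median of 0.10 and none at that threshold. They ranged from -0.02 for *Dnajb5* to 0.23 for *Dnajc5*, the cysteine string protein of synaptic vesicles, and *Dnajc7* was the most abundant at 259.9 TPM. Of 14 co-chaperones 13 were above 0, with a median of 0.19, from -0.05 for the immunophilin gene *Ppid* to *Bag3*, and *Bag1*, a nucleotide exchange factor, was the most abundant at 506 TPM and 0.18 ± 0.12 (standard error) higher on the log2 scale. Vehicle replicate 1 was the lowest sample in 13 of these 14 genes, and without it the median was 0.05.

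The 6 small heat shock proteins were divided, with 3 above 0 and 3 below and a median of -0.02. *Hspb7* was highest at 0.82 (standard error 0.48), but its levels of 0.0894 to 0.488 CPM reached down close to the limit of 3 counts. *Hspb3* was lowest at -0.34 (standard error 0.19, unadjusted p = 0.102), and *Cryab*, the most abundant at 71.2 TPM, had -0.22 (standard error 0.12, unadjusted p = 0.0871). Among the 4 genes of the heat shock factor list, 2 were above 0 and 2 below, from -0.24 for *Hsf5* to 0.31 for *Hsf4*, and *Hsbp1*, which encodes a protein that binds HSF1, was the most abundant at 371 TPM. All 8 subunits of the TRiC chaperonin, the ring that folds actin and tubulin, were above 0, from 0.03 for *Tcp1* to 0.17 for *Cct4*, with a median of 0.13. *Cct8* was the most abundant of them at 274 TPM. Vehicle replicate 1 was the lowest sample in all 8 of them, and without it 4 were above 0, 4 below, and the median was 0.00. Of 6 relatives in the endoplasmic reticulum and mitochondria, 5 were above 0, with a median of 0.14, from -0.06 for *Hsp90b1* to 0.23 for *Hspe1*, which was also the most abundant at 215 TPM. None of the genes in these 4 lists apart from *Hspb8* had an unadjusted p under 0.05.

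Over all 54 genes, 43 were above 0 and 11 below, with a median log2 fold change of 0.13. The median over all genes tested was 0.0014. Vehicle replicate 1 was the lowest sample in 39 of the 54, where it was the lowest in 30.4% of all genes. Without this sample 37 were above 0 and the median was 0.02, and with the marker index as a covariate 16 were above 0, 38 below and the median was -0.05. Leaving out this sample brought the median closer to 0 without turning it, and the marker index turned it. Over all genes the median with the marker index was -0.014, and this fit cannot fully separate the index from the treatment.

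**Figure D4:**
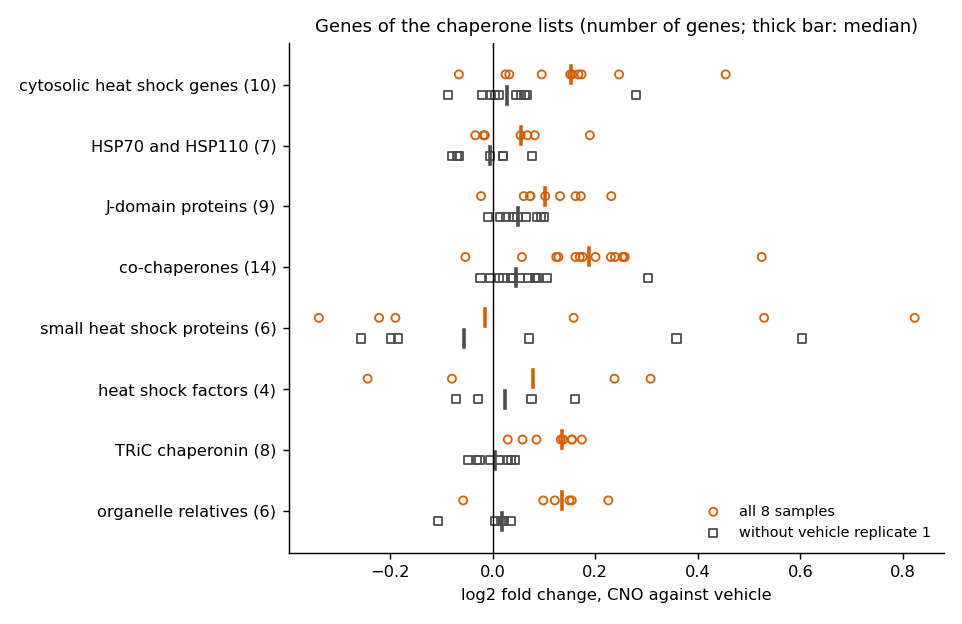
Log2 fold change, CNO against vehicle (horizontal axis), of every gene in the 10 heat shock genes and the 7 further lists (rows, with the number of genes), from all 8 samples (orange circles) and without vehicle replicate 1 (grey squares), with thick bars for the medians. The medians of the TRiC subunits are 0.13 with and 0.00 without this sample, those of the co-chaperones 0.19 and 0.05.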

How the data were processed

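Ribosome-associated mRNA was measured by RNA-seq in 4 CNO and 4 vehicle samples, each pooled from 4 brains. After trimming (Trim Galore) and alignment to GRCm38 (STAR), the authors quantified genes with Salmon and tximport, and deposited estimated counts and TPM per gene, neither of them filtered. TPM, which divides counts by transcript length and scales every sample to 1 total, was used for levels and shares. Counts were rounded, a gene was left out if 4 or more samples had under 10 counts, and CNO was compared with vehicle in R 4.3.3 by the quasi-likelihood test of edgeR 4.0.16 after TMM normalization, with Benjamini-Hochberg adjustment over 17495 genes. Log2 CPM used a prior count of 2. Alternatives were the likelihood ratio test with robust dispersion, DESeq2 1.42.0, limma 3.58.1 on log2(TPM + 1) and log2(TPM + 0.1), other scalings, no filter, a replicate block, a term for replicates 1 and 2 against 3 and 4, the marker index, each sample left out, and *Hspa1a* and *Hspa1b* summed. Plots were drawn with Python and matplotlib.

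The 10 genes, the lists and the rule for named genes were chosen with earlier results of these data known. Named were all 10, in each list the genes with the lowest and highest log2 fold change, the most abundant and those with an unadjusted p under 0.05, the genes most like 3 of the 10, and *Fos*. Library preparation did not keep strand. Samples are separate pools of mice, with no stated pairing.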

Additional observations from a re-analysis of the deposited data

Results flagged for a closer look

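In 28 groups of 4 values (each of the 10 genes, the sum of *Hspa1a* and *Hspa1b*, 2 shares and the summed TPM, with CNO and with vehicle), 8 had a sample whose gap to its nearest neighbour exceeded Dixon's 95% critical share of the group's range. Chance gives about 1 in 20 groups, or 1.4 of 28, and the quantities are not independent of each other. Vehicle replicate 1 was that sample in 6 of the 8, each time as the lowest of the vehicle samples. In *Hspa8* it had a log2 CPM of 9.72 and the others 10.54 to 10.65, a gap of 0.883 of the range. In *Hsp90aa1* it had 8.58 against 9.31 to 9.44 (0.851), and in *Hsp90ab1* 9.04 against 9.73 to 9.78 (0.933). The summed TPM of the 10 genes was 3006 in this sample and 4604 to 4665 in the others (0.963). The share of *Hspa8* in the summed TPM of the 3 HSP70 genes was 98.4% against 98.9% to 99.0% (0.879), and the share of *Hsp90aa1* in the HSP90 pair 50.8% against 53.5% to 54.0% (0.834). The other cases were vehicle replicate 4, the highest of its group in *Hsph1* with a log2 CPM of 8.64 against 8.43 to 8.45 (0.902), and CNO replicate 2, the lowest in the share of *Hspa8* with 98.7% against 99.1% in the others (0.848). The marker index was lowest in vehicle replicate 1, and among the CNO samples in CNO replicate 2. Its part in these gaps was not tested.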

How the results depend on the processing

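Under the alternatives, 183 values of the log2 fold changes of the 10 genes and the sum of *Hspa1a* and *Hspa1b* kept their direction and their side of the threshold, 23 changed direction and 0 passed an adjusted p of 0.05. *Hspa1a* turned to -0.027 with library size only, -0.032 with the marker index, -0.038 with limma on log2(TPM + 1) and -0.042 with 0.1 added, *Hspa1b* in the same order to -0.021, -0.003, -0.038 and -0.041, and their sum to -0.024, -0.015, -0.04 and -0.042. With each sample left out in turn they ranged from -0.021 to 0.080, from -0.024 to 0.090 and from -0.019 to 0.072. The marker index also turned *Hspa8* to -0.060, *Hsp90aa1* to -0.106, *Hsp90ab1* to -0.075, *Dnajb1* to -0.018 and *Dnaja1* to -0.024. The count over all genes at an adjusted p under 0.05, 0 in the quasi-likelihood test, was 15 with the likelihood ratio test, 11 with DESeq2, 4 with no filter, 3 with the term for replicates 1 and 2 against 3 and 4, and 0 to 2 with a sample left out (2 without CNO replicate 1). Of the 10 genes 1, *Hspb1*, had an unadjusted p under 0.05 with the replicate block (log2 fold change 0.421, adjusted p = 0.799) and without CNO replicate 1, a range of 0 to 1 with a sample left out. Of the 54 further chaperone genes 1 did with library size only and 1 with the marker index, and 0 to 4 with a sample left out (0 without vehicle replicate 4, 4 without CNO replicate 2, and 1 without each other CNO replicate). The gene with the marker index was not *Bag3* or *Hspb8* but *Cct2*, lower with CNO (log2 fold change -0.143, unadjusted p = 0.0432, quasi-likelihood test). The cause of these changes in count was not tested. Same-numbered samples of the 2 groups correlated in their deviations at 0.03, -0.03, 0.16 and 0.24. Across the groups, the values within replicates 1 and 2 ran from -0.03 to 0.43, and those within replicates 3 and 4 from 0.08 to 0.33. Between replicates 1 and 2 of one group and 3 and 4 of the other they were all negative, from -0.40 to -0.04. Deviations from a group's mean cancel within the group. The negative values therefore follow in part from the positive ones and are no separate evidence of a split. The source of this pattern was not tested. With 4 samples a group, the intervals of the 10 genes do not exclude changes of the sizes they span.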
